A study of Rattus norvegicus with 16 samples.

Results

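The liver response shared by 3 diets with retinoid X receptor (RXR) agonists was described by setting the 12 liver arrays from rats fed UAB30, MeUAB30 or Targretin, with equal weight for each diet, against 4 arrays from rats on the same mash without a compound, 16 arrays in all. A gene belonged to the broad shared response when the mean change over the diets passed the test and all 3 diets moved it the same way, which held for 351 of the 12156 genes tested. A core of 43 of these genes changed by at least 1.5-fold on every diet, 34 of them higher and 9 lower than in Control livers. That split was less uneven after quantile normalization and without the array Control 3. Enzymes of fatty acid oxidation (Crot, Acsm3, Decr2), the lipogenic protein Thrsp, the P450 Cyp2c22 and the signalling regulator Rgs16 were among the core genes that rose, and Cyp8b1, an enzyme of cholic acid synthesis, fell most. The change was smallest with UAB30 in 32 of the 43 core genes. How many genes were shared depended on single arrays, and 31 of the 43 kept their call whichever array was left out.

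RXR is a nuclear receptor that binds DNA mainly as the partner of other nuclear receptors. Its partners in hepatocytes include the receptors for fatty acids (PPAR alpha), oxysterols (LXR), bile acids (FXR), xenobiotics (CAR and PXR), thyroid hormone and retinoic acid (RAR). An RXR ligand can act through some of these pairs without the partner's own ligand, the so-called permissive pairs, among them those with PPAR, LXR and FXR. Targretin is the trade name of bexarotene, an RXR agonist used as a drug, and MeUAB30 is by its label a methyl form of UAB30.

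The rats were Sprague-Dawley females aged 5 weeks, with 4 arrays for each diet. The diets were Teklad mash (4%) with UAB30 at 200 ppm, with MeUAB30 at 200 ppm or with Targretin at 150 ppm, each for 7 days, or without a compound (Control), for which no period is stated. UAB30 and MeUAB30 were thus fed at matched doses and Targretin at a lower one. Each diet was given to 1 group, so its compound and its batch of feed or animals cannot be told apart, and all 3 comparisons share the 4 Control arrays. No label says that the 4 arrays of a diet are 4 animals, so the tests weigh differences against array-to-array spread, some of which may be technical.

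Array medians lay between 22.2 and 23.8 intensity units, and correlations between arrays lay between 0.893 and 0.983. Control 3 and Targretin 2 stood apart most, with mean correlations of 0.925 and 0.929 with the rest of their groups, and the other 14 arrays had between 0.954 and 0.973. Levels below are log2(intensity + 1), 1 value per gene and array, and a change is the difference of such values between a diet and Control. Adjusted p-values come from limma fits over all 12156 genes (Benjamini-Hochberg, threshold 0.05), and rose, fell and called refer to the mean of the 3 diets against Control unless another comparison is named. Values given by diet are estimates, whether or not that diet was called alone. A group whose mean lay under 6.01, the filter on probe sets, is called dim, as such a level may be no more than background.

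In the mean of the 3 diets against Control 360 genes were called (2.96% of those tested), 303 higher (2.49%) and 57 lower (0.469%), against 1939 at an unadjusted p under 0.05. Of these 351 (2.89%) moved the same way with every diet, 297 higher (2.44%) and 54 lower (0.444%). That share of higher genes, 84.6%, depended on the scaling: it was 59.1% of 880 same-direction genes after quantile normalization and 39.4% of 1800 with the intensity range of each array as a covariate. Agreement in sign is a mild demand, and the 3 changes share the Control arrays. Of all 12156 genes tested, called or not, 6636 had 1 sign with every diet. Among the 351 genes 12 had a change under 0.1 with 1 of the diets. An unadjusted p under 0.05 with 1 sign in each of the 3 diets was reached by 202 of the same-direction genes and by 261 of all genes tested (2.15%).

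The core of 43 genes (0.354% of those tested) had a median size of change of 0.73 with UAB30, 1.18 with MeUAB30 and 1.0 with Targretin, beside 0.13, 0.18 and 0.13 over all genes tested. The change was largest with MeUAB30 in 28 of the 43 genes, with Targretin in 13 and with UAB30 in 2. These sizes chose the members and are given as a description. Lpar3, with a smallest change of 0.585, and Fst, with -0.588, lay just inside the 1.5-fold rule, and Mrpl55, with 0.584, and Psma5, with 0.578, just outside. In 17 core genes, 14 higher and 3 lower, the 12 agonist arrays did not overlap the 4 Control arrays, beside 66 such genes (0.543%) among all tested.

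**Figure D1:**
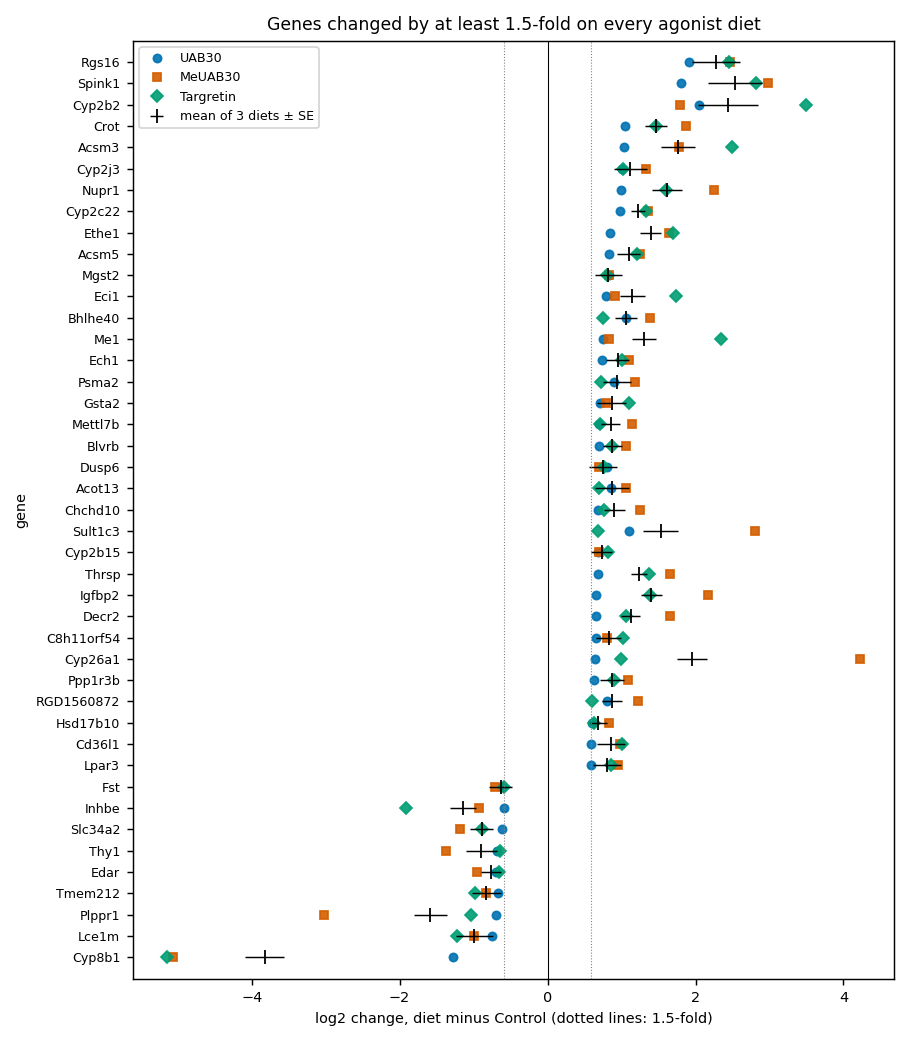
Log2 change against Control (x axis) of the 43 genes that changed by at least 1.5-fold on every agonist diet (y axis), ordered by the smallest of the 3 changes. Circles, squares and diamonds stand for UAB30, MeUAB30 and Targretin, black marks for the mean of the 3 diets ± SE; most circles lie nearest to 0, and Cyp26a1, Sult1c3, Plppr1 and Cyp8b1 are spread widest.

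Only Cyp2c22, Crot and Bhlhe40 were called in each diet taken alone (3 of 12156 genes, 0.0247%), a count of 17 without Control 2 and of 1 without Control 4 or without UAB30 1, 2 or 4. The UAB30 comparison had the fewest calls, with 10 genes (0.0823%) against 1209 with MeUAB30 (9.95%) and 265 with Targretin (2.18%). Cyp2c22 is a cytochrome P450 that hydroxylates retinoic acid in the rat. Its level was 13.16, 13.12, 12.85 and 13.26 in UAB30 livers, 13.44, 13.48, 13.59 and 13.37 in MeUAB30 livers and 13.49, 13.32, 13.51 and 13.49 in Targretin livers, against 12.00, 12.09, 12.04 and 12.35 in Control livers. All 12 agonist arrays lay above all 4 Control arrays, with little spread within any diet. Its changes were 0.98 with UAB30, 1.35 with MeUAB30 and 1.33 with Targretin, 2.33-fold in the mean (SE 0.10 on the log2 scale, adjusted p = 2.06e-06). Probe sets of the Cyp2c family can read close relatives, which limits what is known of its identity.

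Crot is the carnitine octanoyltransferase of peroxisomes, which hands the shortened fatty acids made there over to carnitine. It read 9.34, 9.52, 9.06 and 9.69 in UAB30 livers, 9.94, 10.18, 10.15 and 10.65 in MeUAB30 livers and 9.94, 9.50, 9.96 and 9.93 in Targretin livers, against 8.40, 8.52, 7.97 and 8.55 in Control livers. The groups did not overlap with Control, and UAB30 livers lay lowest of the diets. Its changes were 1.04 with UAB30, 1.87 with MeUAB30 and 1.47 with Targretin (2.76-fold in the mean, SE 0.15, adjusted p = 2.80e-05). Bhlhe40 is a transcriptional repressor that also acts on the circadian clock. Its arrays gave 10.41, 10.38, 10.61 and 10.40 in UAB30 livers, 10.68, 11.07, 10.67 and 10.65 in MeUAB30 livers and 10.25, 9.69, 9.93 and 10.67 in Targretin livers, against 9.74, 9.19, 9.22 and 9.40 in Control livers. Targretin 2 lay under the highest Control array, and the other 11 agonist arrays lay above it. Bhlhe40 changed by 1.07 with UAB30, 1.38 with MeUAB30 and 0.75 with Targretin (2.09-fold in the mean, SE 0.15, adjusted p = 0.000739).

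**Figure D2:**
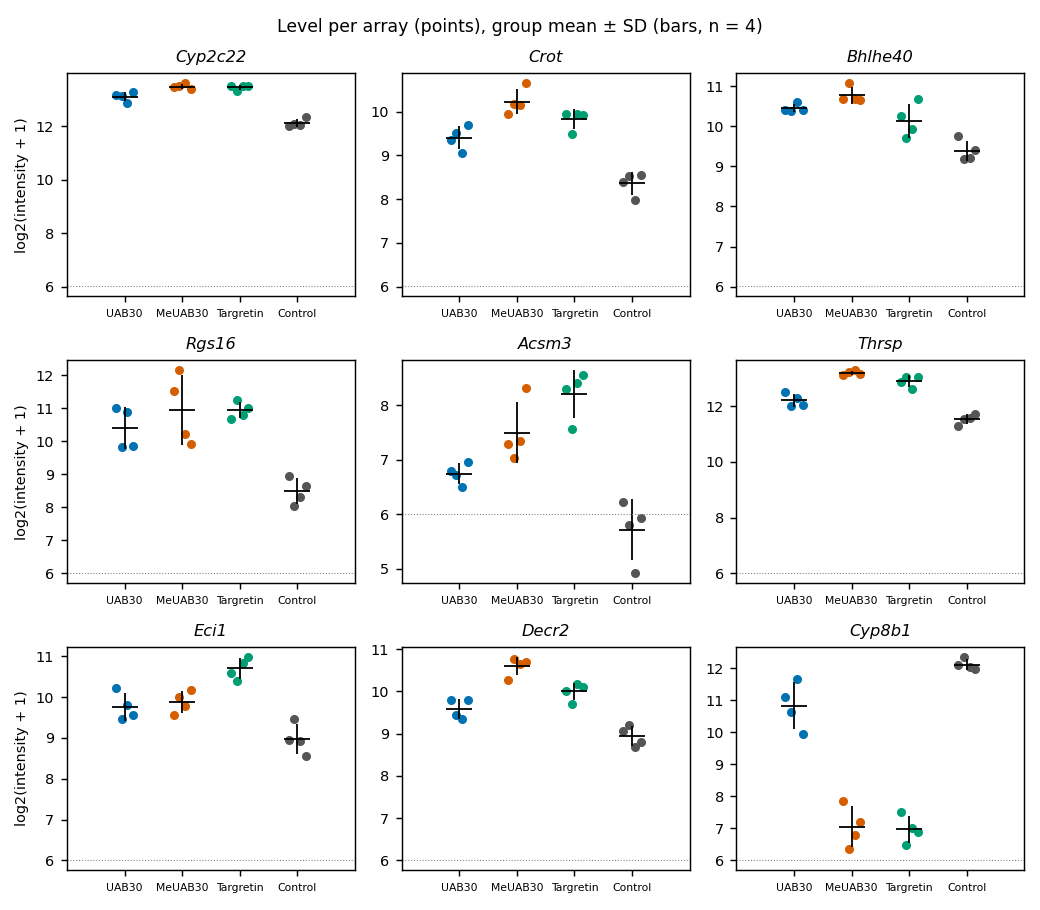
Level of 9 core genes, log2(intensity + 1), on each array (points) by diet, with the group mean ± SD (black, n = 4) and the filter threshold of 6.01 (dotted line). In Cyp8b1 all agonist arrays lie below Control, and in the other 8 genes they lie above it, apart from Targretin 2 for Bhlhe40.

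The promoters of the genes called in each diet, and of Cyp8b1, are shown because RXR pairs bind repeats of the hexamer AGGTCA near their targets. Each is the 250 bases before the annotated start in RefSeq's GRCr8 assembly, 5′ to 3′ on the gene's strand, and capitals mark matches to AGGTCA, to the E-box CACGTG or to CCAAT on either strand. Cyp2c22 lies on chr1:248980768-248981017 (minus strand), Crot on chr4:26052874-26053123 (plus strand), Bhlhe40 on chr4:143174200-143174449 (plus strand) and Cyp8b1 on chr8:130457593-130457842 (minus strand).
Cyp2c22: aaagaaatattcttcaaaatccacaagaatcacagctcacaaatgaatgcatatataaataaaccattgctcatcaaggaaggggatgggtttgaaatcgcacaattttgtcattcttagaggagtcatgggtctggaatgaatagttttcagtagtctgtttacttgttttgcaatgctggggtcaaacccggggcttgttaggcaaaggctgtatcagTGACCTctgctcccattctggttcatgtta
Crot: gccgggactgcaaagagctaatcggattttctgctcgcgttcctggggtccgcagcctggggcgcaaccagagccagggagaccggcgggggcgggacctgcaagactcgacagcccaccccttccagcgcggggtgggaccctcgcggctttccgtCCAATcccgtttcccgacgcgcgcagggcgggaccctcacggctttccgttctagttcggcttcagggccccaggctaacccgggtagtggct
Bhlhe40: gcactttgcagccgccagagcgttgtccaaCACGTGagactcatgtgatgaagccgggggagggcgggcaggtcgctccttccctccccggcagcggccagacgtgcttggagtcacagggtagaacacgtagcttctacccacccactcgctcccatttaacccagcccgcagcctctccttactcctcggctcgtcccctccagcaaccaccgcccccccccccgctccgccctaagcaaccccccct
Cyp8b1: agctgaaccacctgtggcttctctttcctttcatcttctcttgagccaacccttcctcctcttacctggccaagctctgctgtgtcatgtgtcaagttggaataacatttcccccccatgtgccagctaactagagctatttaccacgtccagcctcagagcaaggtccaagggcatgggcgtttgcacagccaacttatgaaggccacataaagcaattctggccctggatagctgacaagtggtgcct
The Cyp2c22 promoter holds the hexamer in reverse as TGACCT, starting 30 bases before the start, the Crot promoter holds CCAAT at 93 and the Bhlhe40 promoter CACGTG at 220, and none of these letters stand in that of Cyp8b1.

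Promoters of 36 of the 43 core genes were matched. AGGTCA stood in 8 of them (22.2%), beside 1139 of 9958 promoters of tested genes (11.4%). Direct repeats of AGGTCA, with GGGTCA, with AGTTCA and with GGTTCA as further half-sites, spaced by 1 base (DR1) stood in 0 of the 36, beside 0.171% of the tested genes' promoters, and those spaced by 4 bases (DR4) in 0, beside 0.0603%. CACGTG stood in 5 (13.9%, beside 8.04%) and CCAAT in 12 (33.3%, beside 35.1%). These are counts of letters in 250 bases and show no site of binding.

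Besides Crot, the core held further genes of fatty acid breakdown. Acsm3 and Acsm5 are mitochondrial enzymes that activate medium-chain fatty acids. Acsm3 gave 6.80, 6.72, 6.5 and 6.96 in UAB30 livers, 7.30, 7.04, 7.34 and 8.32 in MeUAB30 livers and 8.30, 7.57, 8.41 and 8.56 in Targretin livers, against 6.22, 5.80, 4.92 and 5.94 in Control livers. Control was dim, all 12 agonist arrays lay above it, and the mean change was 1.76 (SE 0.23, adjusted p = 0.000451). Acsm3 may have passed the filter only through its agonist arrays. Acsm5 gave 9.35, 9.19, 8.84 and 9.39 in UAB30 livers, 9.42, 9.70, 9.50 and 9.88 in MeUAB30 livers and 9.77, 9.18, 9.52 and 9.85 in Targretin livers, against 8.38, 8.83, 7.91 and 8.36 in Control livers. Its 12 agonist arrays also lay above all Control arrays, with Targretin 2 and UAB30 3 nearest to them, and changes of 0.82 with UAB30, 1.26 with MeUAB30 and 1.21 with Targretin (adjusted p = 0.000836).

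Eci1 and Decr2 handle unsaturated fatty acids, Eci1 as the mitochondrial enoyl-CoA isomerase and Decr2 as the dienoyl-CoA reductase of peroxisomes. The values of Eci1 were 10.22, 9.45, 9.80 and 9.56 in UAB30 livers, 9.57, 10.00, 9.78 and 10.18 in MeUAB30 livers and 10.58, 10.40, 10.85 and 10.98 in Targretin livers, against 8.95, 9.45, 8.93 and 8.55 in Control livers. No agonist array reached into the Control range, but UAB30 2 equalled the highest Control array to 2 decimals. Eci1 changed by 0.79 with UAB30, 0.91 with MeUAB30 and 1.73 with Targretin (adjusted p = 0.00093). The values of Decr2 were 9.80, 9.44, 9.34 and 9.79 in UAB30 livers, 10.28, 10.76, 10.65 and 10.70 in MeUAB30 livers and 10.00, 9.71, 10.17 and 10.12 in Targretin livers, against 9.07, 9.20, 8.69 and 8.80 in Control livers. Again no array overlapped with Control, and the changes were 0.66 with UAB30, 1.66 with MeUAB30 and 1.06 with Targretin (adjusted p = 0.000114). Ech1, an isomerase of the same pathway found in both organelles, changed by 0.73 with UAB30, 1.10 with MeUAB30 and 1.0 with Targretin (adjusted p = 0.00213), with 11 of 12 arrays above Control. Acot13, a thioesterase that splits acyl-CoA, was called at adjusted p = 0.0454, but only 3 of its 12 agonist arrays lay above the highest Control array.

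Of the 21 tested members of a list of mitochondrial fatty acid oxidation and ketogenesis, 8 were same-direction genes, all higher, and 13 were not called; the count was 5 without Control 1 or without Control 4. The median of the mean change over the list was 0.43, with 0.32 for UAB30, 0.37 for MeUAB30 and 0.42 for Targretin, beside 0.03 over all genes tested. Besides Acsm3 and Eci1 these were Acaa2 (0.62), Acat1 (0.73), Hadh (0.43), Echs1 (0.51) and Etfa (0.44), which act in the oxidation spiral, its thiolase steps or its electron transfer, and the thioesterase Acot2, whose mean of 1.03 came mostly from Targretin (0.34 with UAB30, 0.37 with MeUAB30 and 2.38 with Targretin). Cpt1a, which controls the entry of fatty acids into mitochondria, had a mean change of -0.52 (adjusted p = 0.115). Among 23 tested peroxisomal members 7 were higher and 1 lower in the same direction, with a list median of 0.39. Acaa1b (1.17) and Ehhadh (0.73), enzymes of the peroxisomal spiral, rose with changes of 0.38 with UAB30, 0.91 with MeUAB30 and 2.21 with Targretin and of 0.26 with UAB30, 0.44 with MeUAB30 and 1.48 with Targretin, both unequal among the diets. Eci2 (0.71) and Acot8 (0.55) completed the higher members, and the lower one was Acox2, the oxidase of bile acid precursors (-0.21 with UAB30, -1.21 with MeUAB30 and -0.12 with Targretin), a count of 0 without Control 4. Beside the list medians of 0.43 and 0.39, ribosomal proteins, described at the end, had 0.35 (69 cytosolic, 5 higher) and 0.32 (54 mitochondrial, 2 higher).

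Cd36, a fatty acid transporter, rose in the mean, with 0.57 with UAB30, 1.09 with MeUAB30 and 1.08 with Targretin (adjusted p = 0.00385), and was not called with UAB30 alone (adjusted p = 0.446). It belonged to a list of 20 tested PPAR alpha targets outside beta-oxidation with 3 same-direction genes higher, 1 without Control 3, and 1 lower, 0 without Control 1 or 4. The others were Acot1 (0.28 with UAB30, 0.03 with MeUAB30 and 2.14 with Targretin), Pdk4, a kinase that switches off pyruvate dehydrogenase (0.37 with UAB30, 0.11 with MeUAB30 and 1.16 with Targretin), and glycerol kinase Gk (-0.24 with UAB30, -0.42 with MeUAB30 and -1.08 with Targretin). In each of these 3 the change with Targretin was the largest.

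Lipogenic genes also rose, unevenly. Thrsp, also called Spot 14, is a nuclear protein induced with fatty acid synthesis and by thyroid hormone. Its level was 12.51, 12.00, 12.28 and 12.05 in UAB30 livers, 13.12, 13.22, 13.29 and 13.15 in MeUAB30 livers and 12.86, 13.06, 12.64 and 13.06 in Targretin livers, against 11.28, 11.55, 11.59 and 11.72 in Control livers. No array of any diet overlapped with Control, and MeUAB30 and Targretin arrays lay above all UAB30 arrays. Thrsp changed by 0.68 with UAB30, 1.66 with MeUAB30 and 1.37 with Targretin (2.35-fold in the mean, SE 0.11, adjusted p = 1.44e-05). Me1 is malic enzyme, which supplies NADPH to that synthesis. It read 9.89, 9.40, 9.10 and 9.54 in UAB30 livers, 9.07, 9.59, 9.75 and 9.86 in MeUAB30 livers and 11.11, 11.04, 11.07 and 11.14 in Targretin livers, against 8.75, 9.06, 8.25 and 8.90 in Control livers. All 12 agonist arrays lay above Control, narrowly so for the lowest MeUAB30 and UAB30 arrays, while the Targretin arrays stood clear of every other array. The changes of Me1 were 0.74 with UAB30, 0.83 with MeUAB30 and 2.35 with Targretin (adjusted p = 0.000229).

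Of 19 tested genes of fatty acid synthesis 10 were same-direction genes, all higher, with a list median of 0.55 for the mean change; the count was 5 without Control 3. The medians by diet were 0.10 for UAB30, 0.48 for MeUAB30 and 0.88 for Targretin, and only Thrsp and Me1 reached 1.5-fold with each. Scd, the desaturase that makes oleic acid, changed by 0.30 with UAB30, 0.87 with MeUAB30 and 1.52 with Targretin. Acaca, acetyl-CoA carboxylase, changed by 0.09 with UAB30, 1.20 with MeUAB30 and 1.44 with Targretin, and Elovl6, an elongase, by 0.27 with UAB30, 0.83 with MeUAB30 and 2.57 with Targretin. Acacb (0.32 with UAB30, 0.28 with MeUAB30 and 1.19 with Targretin), Pklr (0.10 with UAB30, 0.83 with MeUAB30 and 0.74 with Targretin), Dgat2 (0.04 with UAB30, 0.37 with MeUAB30 and 0.78 with Targretin) and Acly (0.07 with UAB30, 0.48 with MeUAB30 and 1.31 with Targretin) also rose, each with its largest change on MeUAB30 or Targretin. Pnpla3, a lipase of lipid droplets, changed by 0.20 with UAB30, 0.81 with MeUAB30 and 4.57 with Targretin, so its place in the count comes from Targretin. Srebf1, which drives these genes, had changes of -0.02 with UAB30, 0.51 with MeUAB30 and 1.27 with Targretin and was not called (adjusted p = 0.111). Thrsp and Me1 were also the 2 same-direction genes, both higher, among 14 tested genes of thyroid hormone response, whose list median was 0.03.

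**Figure D3:**
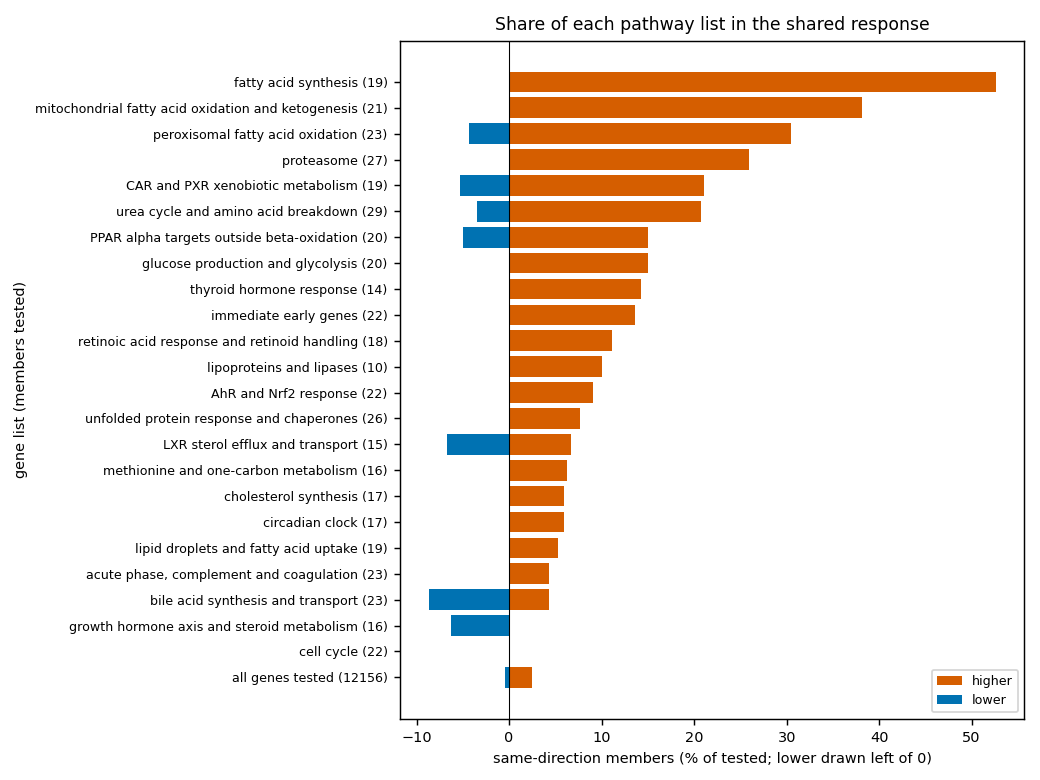
Share of the tested members of 23 pathway lists (y axis, members tested in brackets) that were same-direction genes, in percent, with higher genes drawn right of 0 and lower ones left. Fatty acid synthesis (10 of 19), mitochondrial (8 of 21) and peroxisomal fatty acid oxidation (7 of 23) and the proteasome (7 of 27) have the longest bars, above all genes tested at the bottom (2.44% higher).

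The largest core increases outside metabolism were in Rgs16 and Spink1. Rgs16 speeds up the switching-off of G proteins. Its level was 11, 9.83, 10.90 and 9.87 in UAB30 livers, 11.52, 12.16, 10.22 and 9.93 in MeUAB30 livers and 10.69, 11.24, 10.81 and 11.01 in Targretin livers, against 8.94, 8.04, 8.31 and 8.65 in Control livers. All agonist arrays lay above all Control arrays, and within UAB30 and MeUAB30 pairs of arrays lay far apart. Rgs16 rose 4.84-fold in the mean (SE 0.32, adjusted p = 0.000826), with 1.91 with UAB30, 2.47 with MeUAB30 and 2.45 with Targretin, and a difference among the diets was not called by the F test (adjusted p = 0.676).

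Spink1 is a trypsin inhibitor known best from pancreatic acinar cells. It gave 8.04, 5.55, 6.42 and 6.23 in UAB30 livers, 7.79, 7.66, 7.12 and 8.37 in MeUAB30 livers and 7.84, 6.55, 7.92 and 7.96 in Targretin livers, against 4.71, 5.17, 3.88 and 5.26 in Control livers. Control was dim, and UAB30 2 was the agonist array nearest to it. The mean change was 2.53 (SE 0.37, adjusted p = 0.000898), for a gene that may have passed the filter only through its agonist arrays. Of 7 tested acinar genes Spink1 was the 1 called (0 of the others at an unadjusted p under 0.05), and the other 6, the digestive enzymes Prss1, Cpa1, Cela2a, Pnlip, Ctrb1 and Cel, had mean changes between -0.14 and 0.13. The summed intensity of the 7, Spink1 included, lay between 695 and 974 on UAB30 arrays, 849 and 1085 on MeUAB30 arrays and 912 and 1030 on Targretin arrays, against 675 and 819 on Control arrays.

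Nupr1, a small nuclear protein induced by cell stress, changed by 0.99 with UAB30, 2.25 with MeUAB30 and 1.60 with Targretin (SE 0.21 for the mean, adjusted p = 0.000358). Its arrays gave 9.58, 8.82, 8.48 and 8.73 in UAB30 livers, 9.90, 10.76, 10.17 and 9.83 in MeUAB30 livers and 9.89, 9.55, 9.54 and 9.06 in Targretin livers, against 7.71, 8.48, 7.67 and 7.78 in Control livers. UAB30 3 equalled the highest Control array to 2 decimals, and the others lay above it. Igfbp2, a secreted binder of insulin-like growth factors, gave 9.11, 8.32, 8.63 and 8.65 in UAB30 livers, 10.20, 10.56, 10.05 and 9.90 in MeUAB30 livers and 9.21, 9.50, 9.51 and 9.39 in Targretin livers, against 8.23, 7.78, 8.04 and 8.01 in Control livers. It did not overlap with Control, MeUAB30 arrays stood above the others, and the changes were 0.66 with UAB30, 2.16 with MeUAB30 and 1.39 with Targretin (adjusted p = 2.72e-05). Dusp6, a phosphatase that switches off ERK, had nearly equal changes of 0.80 with UAB30, 0.69 with MeUAB30 and 0.76 with Targretin, but its call (adjusted p = 0.0419) was lost in 12 of the 16 fits that leave out 1 array.

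Enzymes of drug and hormone metabolism formed another group of the core. Cyp2b2 is the phenobarbital-inducible P450 of rat liver and the usual readout of CAR. Its single probe set gave 9.62, 9.45, 10.30 and 10.98 in UAB30 livers, 10.36, 9.18, 8.69 and 11.10 in MeUAB30 livers and 11.96, 11.02, 11.10 and 12.09 in Targretin livers, against 8.03, 8.15, 6.89 and 9.12 in Control livers. MeUAB30 3 lay within the Control range, and the spread within UAB30, MeUAB30 and Control was wide. Cyp2b2 changed by 2.04 with UAB30, 1.79 with MeUAB30 and 3.5 with Targretin (SE 0.41 for the mean, adjusted p = 0.00302), and Cyp2b15, a relative whose probe sets may share its signal, by 0.68 with UAB30, 0.69 with MeUAB30 and 0.82 with Targretin (adjusted p = 0.00764). Por, the electron donor of all microsomal P450s, rose by 0.79 in the mean (adjusted p = 0.00385), and Cyp3a23-3a1, a PXR target, by 0.73 (adjusted p = 0.015). Of the 19 tested members of the CAR and PXR list 4 were same-direction genes higher, 2 without Control 1, 3 or 4, and Cyp2a1 was lower with a change mostly in MeUAB30 (-0.04 with UAB30, -1.11 with MeUAB30 and -0.11 with Targretin), a call lost in some of the fits that leave out 1 array.

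Cyp2j3, which makes epoxides of arachidonic acid, changed by 1.01 with UAB30, 1.33 with MeUAB30 and 1.01 with Targretin. The glutathione transferases Mgst2 (0.83 with UAB30, 0.83 with MeUAB30 and 0.81 with Targretin) and Gsta2 (0.71 with UAB30, 0.80 with MeUAB30 and 1.10 with Targretin) had even changes. Only 7 of 12 agonist arrays of Gsta2 lay above the highest Control array, Control 2. The reductase Blvrb (0.70 with UAB30, 1.06 with MeUAB30 and 0.87 with Targretin) and the methyltransferase Mettl7b (0.70 with UAB30, 1.14 with MeUAB30 and 0.72 with Targretin) also rose. Sult1c3, a sulfotransferase, gave 10.44, 9.19, 9.25 and 9.80 in UAB30 livers, 11.04, 11.26, 11.62 and 11.57 in MeUAB30 livers and 9.41, 8.67, 9.56 and 9.39 in Targretin livers, against 8.78, 9.28, 8.12 and 8.09 in Control livers. Its MeUAB30 arrays stood far above the rest, and 3 arrays of the other diets lay within the Control range.

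Cyp8b1 decides how much cholic acid the liver makes and was the core gene with the largest fall. Its level was 11.11, 10.63, 11.66 and 9.94 in UAB30 livers, 7.87, 6.35, 6.78 and 7.21 in MeUAB30 livers and 7.51, 6.49, 7.02 and 6.87 in Targretin livers, against 12.09, 12.35, 12.03 and 11.97 in Control livers. All agonist arrays lay below Control, the UAB30 arrays nearest to it and the MeUAB30 and Targretin arrays near the filter threshold. The changes were -1.28 with UAB30, -5.06 with MeUAB30 and -5.14 with Targretin (14.2-fold lower in the mean, SE 0.27, adjusted p = 5.51e-07), read by 2 probe sets. Of 23 tested genes of bile acid synthesis and transport 1 was a same-direction gene higher, the uptake transporter Slc10a1 (0.34 with UAB30, 0.46 with MeUAB30 and 0.51 with Targretin; 0 without Control 1, 3 or 4 and 2 without Control 2), and 2 were lower, Cyp8b1 and the phospholipid exporter Abcb4 (-0.25 with UAB30, -2.29 with MeUAB30 and -0.45 with Targretin). Cyp7a1, which starts bile acid synthesis and limits its rate, was not shared, with -2.04 with UAB30, -1.76 with MeUAB30 and 0.31 with Targretin (adjusted p = 0.0554). Nr0b2 (SHP), the FXR target that represses both genes, was called in the mean (adjusted p = 0.00385) but had estimates of opposite signs (-0.18 with UAB30, 1.40 with MeUAB30 and 1.25 with Targretin). The estimate of Nr0b2 with UAB30 was small and was not called.

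Cyp26a1, the hydroxylase that clears retinoic acid and the best known RAR target, entered the core with very unequal changes. Its arrays gave 9.37, 9.46, 8.71 and 9.96 in UAB30 livers, 12.86, 13.03, 13.02 and 12.90 in MeUAB30 livers and 10.20, 9.63, 9.35 and 9.73 in Targretin livers, against 8.78, 8.73, 8.16 and 9.25 in Control livers. MeUAB30 arrays were far above all others, and UAB30 3 lay within the Control range. The changes were 0.64 with UAB30, 4.22 with MeUAB30 and 1.0 with Targretin (adjusted p = 3.03e-05). Of 18 tested genes of retinoic acid response and retinoid handling 2 were same-direction genes, both higher, Cyp26a1 and the retinal dehydrogenase Aldh1a1 (0.76 with UAB30, 0.13 with MeUAB30 and 1.76 with Targretin); the count was 1 without MeUAB30 4, Control 1 or Control 4 and 5 without Targretin 2. Rxra itself, the main RXR of hepatocytes, had a mean change of -0.04 (adjusted p = 0.898).

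Among the other lower core genes, 2 belong to activin signalling. Inhbe is the activin subunit made by hepatocytes and gave 8.49, 9.02, 8.72 and 8.52 in UAB30 livers, 8.03, 8.49, 8.46 and 8.44 in MeUAB30 livers and 7.86, 6.65, 7.43 and 7.53 in Targretin livers, against 9.48, 9.41, 8.95 and 9.29 in Control livers. UAB30 2 lay within the Control range and Targretin arrays were lowest, with changes of -0.59 with UAB30, -0.93 with MeUAB30 and -1.91 with Targretin (adjusted p = 0.00121). Fst, follistatin, which binds activins, changed by -0.61 with UAB30, -0.71 with MeUAB30 and -0.59 with Targretin on a single probe set, and its call (adjusted p = 0.0338) was lost in 10 of the 16 fits without 1 array. Slc34a2, a sodium-phosphate transporter, gave 8.56, 9.07, 8.17 and 8.89 in UAB30 livers, 7.82, 8.17, 8.25 and 8.2 in MeUAB30 livers and 8.34, 8.06, 8.56 and 8.66 in Targretin livers, against 9.62, 9.28, 9.12 and 9.12 in Control livers. Its 12 agonist arrays lay below all Control arrays (-0.62 with UAB30, -1.18 with MeUAB30 and -0.88 with Targretin, adjusted p = 0.00376). Edar, the ectodysplasin receptor, was lower on all 12 arrays too (-0.70 with UAB30, -0.95 with MeUAB30 and -0.65 with Targretin, adjusted p = 0.00474).

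Plppr1, a phospholipid phosphatase-related membrane protein, gave 7.60, 7.59, 7.44 and 7.89 in UAB30 livers, 5.69, 5.12, 5.40 and 5.03 in MeUAB30 livers and 7.88, 6.37, 7.76 and 7.19 in Targretin livers, against 8.53, 8.65, 7.66 and 8.48 in Control livers. MeUAB30 was dim and stood far below the rest, whereas 3 arrays of the other diets lay within the Control range (-0.70 with UAB30, -3.02 with MeUAB30 and -1.03 with Targretin, adjusted p = 0.000826). Thy1, Tmem212 and Lce1m were each read by 1 probe set and fell, with mean changes of -0.90, -0.83 and -0.99, with adjusted p-values between 0.0258 and 0.0407. Thy1 lost its call without the filter and with the filter at the 50th percentile, and Lce1m lost it with the latter. Single probe sets carried 7 of the 43 core genes (16.3%), beside 13.7% of all genes tested.

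The remaining higher core genes had various roles. Ethe1, the mitochondrial dioxygenase of sulfide breakdown, changed by 0.85 with UAB30, 1.64 with MeUAB30 and 1.70 with Targretin (SE 0.14 for the mean, adjusted p = 3.32e-05), with 11 of 12 arrays above Control. Chchd10, a protein of the intermembrane space, changed by 0.69 with UAB30, 1.25 with MeUAB30 and 0.77 with Targretin (adjusted p = 0.00197), and Hsd17b10, a mitochondrial dehydrogenase, by 0.59 with UAB30, 0.83 with MeUAB30 and 0.62 with Targretin (adjusted p = 0.00302). Ppp1r3b, which brings protein phosphatase to glycogen, changed by 0.62 with UAB30, 1.09 with MeUAB30 and 0.90 with Targretin (adjusted p = 0.00699). C8h11orf54 (0.83), RGD1560872 (0.87), Cd36l1 (0.86) and the lysophosphatidic acid receptor Lpar3 (0.80), the last with a dim Control, were the others.

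Some subunits of the proteasome, which breaks down tagged proteins, were higher in the mean of the diets. Psma2, an alpha subunit of its 20S core particle, was in the core and gave 10.40, 9.60, 9.27 and 9.81 in UAB30 livers, 10.01, 9.86, 10.19 and 10.14 in MeUAB30 livers and 9.65, 9.23, 9.62 and 9.88 in Targretin livers, against 8.72, 9.56, 8.79 and 8.40 in Control livers. Control 2 lay above UAB30 3 and Targretin 2, and the other agonist arrays lay above all Control arrays (0.90 with UAB30, 1.18 with MeUAB30 and 0.73 with Targretin, adjusted p = 0.0128). Of 27 tested members 7 were same-direction genes, all higher, with a list median of 0.41 and medians of 0.33 for UAB30, 0.54 for MeUAB30 and 0.41 for Targretin, and with UAB30 alone 0 were called. All 7 belong to the 20S particle, of which 13 subunits were tested with a median of 0.64, whereas 0 of 14 tested subunits of the 19S regulatory particle were called (6 at an unadjusted p under 0.05 in limma), with a median of 0.27, a split made after the values were seen. The other 6 were Psma1, Psma5, Psmb2, Psmb3, Psmb5 and Psmb6, with mean changes between 0.64 and 0.72. The count of 7 was 0 without Control 4, 1 without Control 1, 2 without Control 3 and 14 without Targretin 2, so it rests on which arrays are kept. Cytosolic ribosomal proteins, described at the end, had a median of 0.35 beside the 0.41 of this list.

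Amino acid breakdown gave 6 same-direction genes higher, 3 without Control 1, 3 or 4, and 1 lower, 2 without Control 2 or Targretin 2, among 29 tested. The transaminase Gpt (0.47 with UAB30, 0.89 with MeUAB30 and 0.60 with Targretin), the glutaminase Gls2 (0.59 with UAB30, 1.06 with MeUAB30 and 0.25 with Targretin), Haao of tryptophan breakdown (0.30 with UAB30, 0.77 with MeUAB30 and 0.47 with Targretin), Got2 (0.18 with UAB30, 0.41 with MeUAB30 and 0.50 with Targretin) and Bckdhb (0.45 with UAB30, 0.74 with MeUAB30 and 0.55 with Targretin) rose in the mean with estimates above 0 on every diet, and with UAB30 alone 0 members of the list were called. Acmsd and the decarboxylase Ddc owed their place to MeUAB30, with 0.20 with UAB30, 2.88 with MeUAB30 and 0.48 with Targretin and -0.33 with UAB30, -2.19 with MeUAB30 and -0.44 with Targretin. After quantile normalization this list had 5 higher and 6 lower, so its direction was not stable under that scaling. Glycolysis and glucose production gave 3 higher of 20 (1 without Control 3 or 4, 5 without MeUAB30 1, 8 without Targretin 2), Eno1 (0.38 with UAB30, 0.83 with MeUAB30 and 0.49 with Targretin), Gapdh (0.19 with UAB30, 0.56 with MeUAB30 and 0.50 with Targretin) and Pklr. The apolipoprotein Apoa2 (0.41 with UAB30, 0.52 with MeUAB30 and 0.62 with Targretin), the sarcosine dehydrogenase Sardh (0.36 with UAB30, 0.77 with MeUAB30 and 0.34 with Targretin) and the heat shock protein Hspb1 (0.49 with UAB30, 0.90 with MeUAB30 and 0.70 with Targretin) were same-direction members of further lists.

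Further lists had small counts of shared genes. Cholesterol synthesis had Insig1 of 17 tested (0.40 with UAB30, 0.08 with MeUAB30 and 1.44 with Targretin), and the circadian clock had Bhlhe40 of 17. Growth hormone axis and steroid metabolism had Esr1, lower, of 16 (-0.28 with UAB30, -0.63 with MeUAB30 and -1.67 with Targretin). Of 15 LXR targets, Lpcat3 was higher (0.33 with UAB30, 0.31 with MeUAB30 and 0.80 with Targretin) and Abcg8 lower (-0.22 with UAB30, -1.69 with MeUAB30 and -1.76 with Targretin). The cell cycle had 0 of 22 in limma, also 0 at an unadjusted p under 0.05. The share was 5.88% for cholesterol synthesis and for the clock and 6.25% for growth hormone axis and steroid metabolism. It was 13.3% for LXR targets, beside 2.89% of all genes tested. These small counts moved when 1 array was left out, between 1 and 2 for cholesterol synthesis and the clock. The range was 1 to 3 for growth hormone axis and steroid metabolism and 0 to 2 in either direction for LXR targets. Abcg5, the partner of Abcg8 in sterol export, had estimates of opposite signs (0.14 with UAB30, -2.31 with MeUAB30 and -1.62 with Targretin). Its small estimate with UAB30 was not called. The list of immediate early genes, in which Zbtb16 was also placed, gave 3 higher of 22. The count was 0 without Control 3 and 1 without Control 1, Control 4, Targretin 3 or Targretin 4. Of the 3, Egr1 (1.49 with UAB30, 1.43 with MeUAB30 and 0.03 with Targretin) and Zbtb16 (1.76 with UAB30, 0.39 with MeUAB30 and 1.0 with Targretin) were uneven and Dusp6 was even. Nqo1, a quinone reductase, was called at adjusted p = 0.00216 with 1.33 with UAB30, 1.57 with MeUAB30 and 0.20 with Targretin, and Cyp1a1, the AhR target, was called in the mean but had opposite signs (5.74 with UAB30, -0.59 with MeUAB30 and 0.91 with Targretin); 9 called genes had such mixed signs.

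Markers of liver cell types were mostly not called. Of 12 tested hepatocyte markers 0 were called by limma (2 at an unadjusted p under 0.05), but 3 were called lower with MeUAB30 alone. Their summed intensity lay between 109071 and 114155 on UAB30 arrays, 97754 and 101912 on MeUAB30 arrays and 103025 and 112556 on Targretin arrays, against 106973 and 113919 on Control arrays, so that all MeUAB30 arrays lay below Control. The sums of periportal markers (52847 to 57293 on MeUAB30 arrays, against 57797 to 62151 on Control arrays) and of pericentral markers (29853 to 33073 on MeUAB30 arrays, against 36037 to 44276 on Control arrays) were also apart. The periportal list shares Alb, Cps1 and Ass1 with the hepatocyte list. The pericentral list holds Cyp8b1, so its sum carries the fall of that core gene, and no sum without Cyp8b1 was taken. Of 13 tested Kupffer cell and macrophage markers 0 were called (4 at an unadjusted p under 0.05), with a median change of 0.36 (0.43 for UAB30, 0.56 for MeUAB30 and 0.08 for Targretin) and sums from 3765 to 8582 on agonist arrays and from 3840 to 7246 on Control arrays. Lists for stellate, endothelial, bile duct, lymphoid, neutrophil, fat and muscle cells also had 0 called members of 56 tested (6 at an unadjusted p under 0.05), and the erythroid list had 1, Epb42, lower, 0 without UAB30 4, MeUAB30 2, Control 1 or Control 4. The erythroid sum lay between 1794 and 3415 on Targretin arrays, below every Control array (3728 to 6945). The adipocyte sum (1765 to 1922 on MeUAB30 arrays, against 1176 to 1449 on Control arrays) and the stellate cell sum (5318 to 5740 on MeUAB30 arrays, with a highest Control array of 5120) were above Control with MeUAB30. What part these shifts have in the shared genes was not tested. Among pericentral and periportal hepatocyte markers the called genes were those named above, Cyp8b1, Aldh1a1 and Gls2. In whole liver fewer cells of a type and less RNA per cell cannot be told apart.

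The diets differed in size in 14 of the 43 core genes by an F test that uses no Control array, beside 536 (4.41%) of all genes tested; core genes were chosen for large changes, so nothing is read from that share. MeUAB30 and UAB30, at the same dose, differed in 10 core genes, beside 172 of all genes (1.41%), and in all 10 the change was larger with MeUAB30. This share and direction come from the same chosen genes, so nothing is read from them either. The difference, MeUAB30 minus UAB30, was -3.78 (95% interval -4.47 to -3.09, adjusted p = 2.73e-06) for Cyp8b1. It was 3.58 (95% interval 3.07 to 4.09, adjusted p = 1.14e-07) for Cyp26a1. For Igfbp2 it was 1.5 (95% interval 1.15 to 1.86, adjusted p = 5.29e-05). Thrsp differed by 0.99 (95% interval 0.69 to 1.28, adjusted p = 0.000697), Decr2 by 1.0 (95% interval 0.67 to 1.34, adjusted p = 0.00213) and Crot by 0.83 (95% interval 0.45 to 1.20, adjusted p = 0.0253). The other 4 were Plppr1, Sult1c3, Nupr1 and Ethe1.

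In the other 33 core genes a difference between the 2 analogs was not called, which does not show that they acted alike. For Cyp2c22 the difference was 0.38 (95% interval 0.13 to 0.63, adjusted p = 0.159), for Rgs16 0.56 (95% interval -0.28 to 1.39, adjusted p = 0.672), for Bhlhe40 0.31 (95% interval -0.07 to 0.70, adjusted p = 0.576) and for Me1 0.09 (95% interval -0.33 to 0.50, adjusted p = 0.942). The 95% interval for Mgst2 ran between -0.47 and 0.46 (adjusted p = 0.998), and Dusp6 had -0.10 (95% interval -0.60 to 0.39, adjusted p = 0.94). Targretin was fed at a lower dose, so its values stand beside the others without such a comparison.

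The number of shared genes depended on single arrays. Leaving out 1 array in turn gave between 109 same-direction genes, without Control 4, and 884, without Targretin 2, and between 32 core genes, without Control 4, and 94, without Control 2, with 72 without Targretin 2. Without Control 1 there were 155 and without Control 3 there were 254, with 65.0% higher. Of the 43 core genes 31 stayed called in all 16 such fits, and 15 also stayed at 1.5-fold or more on every diet. Lost calls were in Acot13, Lce1m, Dusp6, Fst, Lpar3, Tmem212, Gsta2, Mgst2, Cd36l1, Psma2, Thy1 and Cyp2j3. Fitting the 12 agonist arrays as 1 group against Control, where differences between diets count as error, called 28 genes, all of them same-direction genes, and 22 of the 43, and Cyp8b1, Cyp26a1, Me1 and Igfbp2 were not among them (adjusted p = 0.0597, 0.256, 0.127 and 0.0544).

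**Figure D4:**
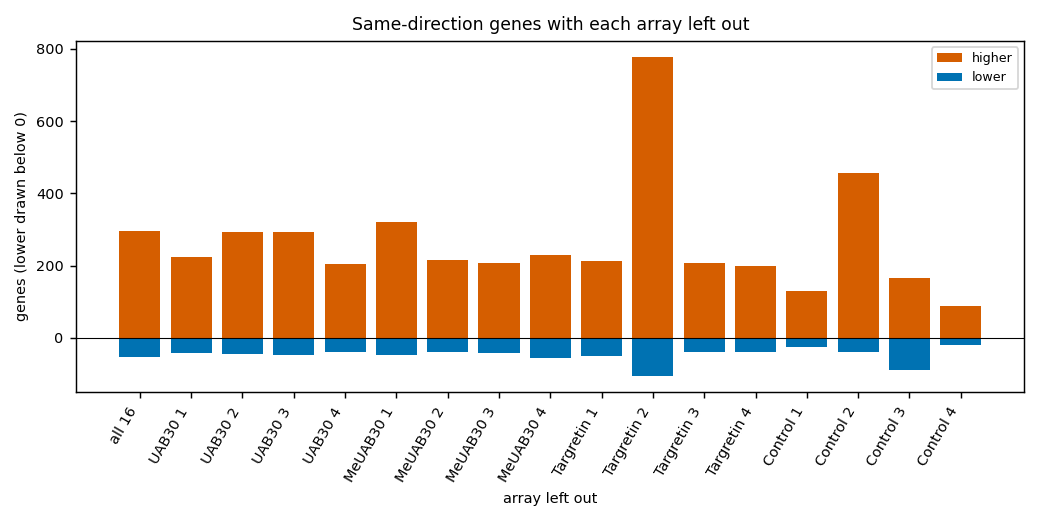
Number of same-direction genes (y axis) with all 16 arrays and with each array left out in turn (x axis), higher genes drawn above 0 and lower genes below. With all arrays 297 genes are higher and 54 lower; the bars are tallest without Targretin 2 and without Control 2 and shortest without Control 4.

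Single arrays also stood apart within the core genes. Of the 34 higher core genes Control 2 was the highest Control array in 17 and Control 3 the lowest in 17, beside 4280 and 6074 of all 12156 genes. For Control 3 the share among these core genes was about that among all genes. Among agonist arrays UAB30 2 lay within the Control range in 13 core genes, Targretin 2 in 11 and UAB30 3 in 9, and MeUAB30 4 in 0. Without Control 3 and Targretin 2, a choice made after seeing the data, 892 genes were same-direction genes, 58.4% of them higher, and 66 were in the core, among them 33 of the 43. Of the 43, 20 were called under every alternative tried, Cyp2c22, Crot and Thrsp among them.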

How the data were processed

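RNA from 16 liver samples was read on Affymetrix whole-transcript arrays. The authors deposited linear intensities of 887828 probe sets. How background, probe summary and normalization were handled is not given in the sources used here, and rn4 is the build per the submitters' processing notes. Columns of other samples numbered 0. Arrays were grouped by their titles.

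Intensities were taken as log2(intensity + 1), which understates changes of dim genes. The 177688 probe sets (20.0%) paired with exactly 1 gene symbol by the platform annotation entered; 2920 had several symbols and 707220 none here. Of 14903 symbols 11393 were current, 3454 were updated through RefSeq synonyms and 56 were kept. Probe sets with a mean below the 75th percentile (log2 value 6.01) were dropped, which left 103692 probe sets of 12156 genes, a median of 6 per gene, joined by median polish.

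The linear model held 1 mean for each of the 4 groups and was fitted to 16 arrays in limma 3.58.1 with eBayes. R was version 4.3.3, with version 1.17.8 of data.table. The contrast was the mean of the 3 diets minus Control, beside each diet minus Control, an F test among diets and MeUAB30 minus UAB30, each adjusted by Benjamini-Hochberg over all genes. The number of arrays limits the precision, with a median standard error of 0.14 for the mean contrast. Tested on simulated data over 12156 genes, the mean contrast recovered 50.5% of 200 changes of 1.5-fold and 94% of 200 changes of 2-fold. False calls were 8 and 12, which is 7.34% and 6% of the genes called. These rates describe the simulated data and need not hold for the real arrays, whose counts moved with single arrays.

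Named genes were core genes apart from Control (14 higher and 3 lower), up to 3 same-direction genes per list, 16 fixed genes and the 4 nearest the 1.5-fold rule, 64 in all. All other core genes and the other called list members were named after their values were seen. The members, the 36 gene lists and the fixed genes were chosen with earlier results of these data known. Promoters came from RefSeq (GRCr8), for names and sequence only, since no genome of the files' build was used here. The alternatives were quantile normalization, another pseudocount (16), filter or gene summary, array weights, a 2-group fit, a replicate block, an intensity range covariate, pairs of diets and left-out arrays.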

Additional observations from a re-analysis of the deposited data

Results flagged for a closer look

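Named genes were searched for an array far from the other 3 of its group, by Dixon's 95% criterion. Of 256 groups 20 had such an array, and chance gives about 12.8. Targretin 2 stood low in Spink1 (6.55), Crot (9.50) and Cyp2c22 (13.3), 3 of the genes whose 12 agonist arrays still lay above Control. Control 3 stood low in Dusp6 (9.61), Acot2 (7.88) and Gk (11.1). Control 2 stood high in Slc10a1 (11.8), Cyp3a23-3a1 (11.6), Psma5 (9.15) and Mrpl55 (7.59). Within UAB30, Bhlhe40 stood high on array 3 (10.6), and Eno1 stood low on array 2 (10.4), Cd36 on array 3 (10.6) and Cyp1a1 on array 1 (11.4). Within MeUAB30, Bhlhe40 (11.1 on array 2) and Ddc (7.90 on array 4) stood high, and Zbtb16 (7.08 on array 3), Acot1 (6.57 on array 1) and Mrpl55 (8.03 on array 1) stood low. Scd stood high on Targretin 1 (11.3).

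The change against Control differed among the 3 diets in 35 named genes by limma's F test. In this and the next sentences the values are its adjusted p. Genes whose estimates had opposite signs were Cyp1a1 (3.89e-08), Nr0b2 (2.20e-05), Abcg5 (0.000816), Cyp7a1 (0.00170) and Srebf1 (0.00798), which were not part of the shared response. In Nr0b2, Abcg5 and Srebf1 the estimate of the other sign, with UAB30, was small. Largest with Targretin were Pnpla3 (3.89e-08), Acaa1b (1.77e-06), Acot1 (7.02e-06), Acot2 (7.02e-06), Insig1 (8.36e-06), Me1 (5.25e-05), Scd (0.000122), Esr1 (0.00104), Aldh1a1 (0.00149), Gk (0.00389), Abcg8 (0.00683), Acsm3 (0.0149), Eci1 (0.0163) and Cyp3a23-3a1 (0.0276). Cyp8b1 (7.33e-07) changed least with UAB30. Largest with MeUAB30 were Cyp26a1 (8.25e-08), Acmsd (1.86e-07), Abcb4 (6.89e-07), Ddc (8.36e-06), Igfbp2 (8.01e-05), Thrsp (0.000816), Nqo1 (0.000891), Decr2 (0.00245), Orm1 (0.00461), Gls2 (0.00462), Pklr (0.0136), Crot (0.0269) and Sardh (0.0314). Egr1 (1.58e-05) and Zbtb16 (0.0224) were largest with UAB30. The F test does not say which diet stands apart, and the largest change is only a ranking of estimates. Egr1 had 1.49 with UAB30 and 1.43 with MeUAB30, and Nqo1 had 1.57 with MeUAB30 and 1.33 with UAB30. Abcg8 had -1.76 with Targretin and -1.69 with MeUAB30.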

How the results depend on the processing

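Counts are given as genes called in the mean contrast, same-direction genes, core genes and genes called in each diet, with 360, 351, 43 and 3 with all 16 arrays. Leaving out 1 array gave 111 to 907, 109 to 884, 32 to 94 and 1 to 17. Quantile normalization gave 919, 880 and 11 called in each diet; array weights gave 1348, 1306, 75 and 21; the intensity range covariate gave 1867, 1800 and 62 called in each diet. Dropping the array of lowest mean correlation in each group (UAB30 3, MeUAB30 1, Targretin 2 and Control 3) gave 1295, 1260, 72 and 13, and dropping Targretin 2 and Control 3, an alternative added after seeing the data, 914, 892, 66 and 11. The 2-group fit gave 28, 28 and 22. Pairs of diets gave 549, 537 and 149 (MeUAB30 and Targretin), 90 and 88 (UAB30 and Targretin), and 565, 556 and 120 (UAB30 and MeUAB30). Counts not given here lay within 1.5 times of their value with all arrays. Same-numbered arrays of different groups had a median correlation of deviations of -0.0032 (lowest -0.504, highest 0.574). Arrays of other numbers had 0.059 (lowest -0.552, highest 0.674). Ranges this wide cannot decide whether replicate numbers pair the arrays. The replicate block gave 235, 229 and 38, and it changed the call of 6 core genes, leaving 37. The cause of these shifts was not tested, apart from fewer arrays or diets where these were left out.

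All 43 core genes stayed called after quantile normalization and with the range covariate, of which 33 and 31 stayed in the core. Of 1920 values of named genes under alternatives 1701 kept direction and side of the threshold, 206 lost and 12 gained a call, and 1 reversed: Rxra, never called, had 0.00019 with UAB30 and MeUAB30 alone. The share of higher same-direction genes ran from 39.4% to 92.9%. No alternative moved the median of all genes by more than 0.1. Array values carry no counts, so signal over background limits dim genes, 6 of the core among them.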

Other observations

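Among the 351 same-direction genes, enzymes of the tricarboxylic acid (TCA) cycle and its entry stood out when gene names were read through, a group chosen after its values were seen and therefore not tested. Of 24 tested genes of the cycle and of pyruvate dehydrogenase 13 were higher in the same direction and 0 lower, beside 2.44% of all genes, with a median change of 0.43 (0.31 with UAB30, 0.59 with MeUAB30 and 0.41 with Targretin). All 4 subunits of succinate dehydrogenase rose in limma's mean contrast, by 0.35 (Sdha, adjusted p = 0.0376), 0.70 (Sdhb, adjusted p = 0.0108), 0.61 (Sdhc, adjusted p = 0.00753) and 0.58 (Sdhd, adjusted p = 0.00669). Mdh1, the cytosolic malate dehydrogenase, had changes of 0.56 with UAB30, 0.87 with MeUAB30 and 0.70 with Targretin (adjusted p = 0.000739). Pdhb, a subunit of pyruvate dehydrogenase, had changes of 0.40 with UAB30, 1.17 with MeUAB30 and 0.85 with Targretin (adjusted p = 0.000902). The count of 13 was 3 without Control 4, 15 without Targretin 2, 13 after quantile normalization, 16 with the intensity range covariate and 1 in the 2-group fit.

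A group of respiratory chain and ATP synthase genes had 13 higher of 66 tested, a count that was 0 without Control 4 and 38 without Targretin 2. Its medians were 0.35 for UAB30, 0.72 for MeUAB30 and 0.19 for Targretin. Besides subunits it holds the Ndufaf assembly factors and the ATP synthase inhibitor Atp5if1, and it leaves out succinate dehydrogenase, which is counted above. Ribosomal proteins had medians in the same range: 0.35 for 69 cytosolic ones, 5 of them higher (0 without Control 4 and 30 without Targretin 2), and 0.32 for 54 mitochondrial ones, 2 of them higher (0 without Control 1 and 18 without Targretin 2). These counts are to be read beside the 2.44% of all genes tested. Without Targretin 2 and Control 3 the medians were 0.38 for the TCA cycle, 0.45 for the respiratory chain, 0.36 for cytosolic and 0.29 for mitochondrial ribosomal proteins, beside 0.43, 0.43, 0.35 and 0.32 with all arrays.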
